A study of Mus musculus with 8 samples.

Results

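The mitochondrial respiratory chain and ATP synthase are built from subunits of a pair of genomes, and the 103 genes described here are those subunits and a few of their assembly factors in mouse spinal cord. The members are the rows of the deposited count table whose symbols begin with mt-Nd, mt-Co, mt-Cytb or mt-Atp (the mt- set), or with Ndufa, Ndufb, Ndufc, Ndufs, Ndufv, Sdha to Sdhd, Uqcr, Cox4 to Cox8 or Atp5 (the nuclear set), with at least 10 expected counts in at least 4 libraries. Of 47643 gene rows, 109 matched by name. Rows with names ending in -ps and digits (Atp5l-ps1, Atp5l-ps2 and Atp5k-ps2) were left out, and Cox8c, Cox7b2 and Atp5l2-ps did not reach the count minimum. The 103 members are 13 mt- genes and 90 nuclear genes. By name, the nuclear genes are 38 of complex I, 4 of complex II, 8 of complex III, 16 of complex IV, 17 of complex V and 7 Ndufaf assembly factors of complex I. At the edge of the count rule, Cox8b passed with 8 to 138 counts per library and 7 libraries at 10 or more, and Cox7b2 missed it with 3 to 12 counts.

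In textbook terms, complexes I to IV pass electrons from NADH and succinate to oxygen, and complexes I, III and IV pump protons. Complex V uses the proton gradient to make ATP. The mitochondrial chromosome codes for core membrane subunits of complexes I, III, IV and V and for none of complex II, and its long transcripts are cut into separate mRNAs. All other subunits are transcribed in the nucleus, translated in the cytosol and imported. Neurons depend on this pathway for most of their ATP.

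The study examined the small GTPase Arf1, a regulator of Golgi and membrane traffic, in neurons. RNA was sequenced from whole spinal cord of C57BL/6 mice, with 4 libraries labelled heterozygous and 4 labelled homozygous. The labels describe deletion of Arf1 by injected tamoxifen at 100 mg/kg and an age range of 2 to 10 months for the study. The sources used here do not give the Cre driver, the age and sex of each mouse, or whether the heterozygous mice also received tamoxifen. Nothing there says that each library is a separate animal, so p-values measure the spread between these libraries.

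Arf1 (chr11:59211412-59228270, minus strand, GRCm38) checked the labels. Its level in CPM (read counts relative to the library total, scaled by the trimmed mean of M-values, TMM) was 334, 296, 322 and 303 in heterozygous replicates 1 to 4. The library labelled homozygous replicate 1 had 307, within that range, and homozygous replicates 2, 3 and 4 had 22.5, 22.8 and 39.9. Comparisons were therefore made for all 8 libraries and for 7, without the library labelled homozygous replicate 1. Library totals were 26321522 to 37879426 expected counts. Homozygous replicate 3 stood apart in quality measures, with 92.4% of its reads mapped against 98.3% to 98.5% in the others and 2.44% ribosomal bases against 0.10% to 0.34%. Homozygous replicate 4 had an RNA integrity number of 8 and the others 9. No defining marker of neurons, oligodendrocytes, astrocytes or microglia was at 0 over the libraries. In whole tissue, fewer cells of a type and less RNA per cell cannot be told apart.

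Several mt- genes share their sequence with copies in the nuclear genome, and these sequences bear directly on their counts. In the GENCODE M21 annotation of GRCm38, a cluster of pseudogenes on the minus strand of chromosome 1 holds copies of mt-Atp6, mt-Co2, mt-Co3, mt-Nd3, mt-Nd4l and parts of mt-Co1 and mt-Nd4. Gm10925 (chr1:24613974-24614651) matched mt-Atp6 over 678 bases with 0 mismatches. The opening 60 bases of each, shown because a read lying within them fits both genes equally, are:
mt-Atp6, chrM:7927-7986, plus strand: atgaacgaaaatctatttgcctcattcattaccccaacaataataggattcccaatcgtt
Gm10925, chr1:24614592-24614651, minus strand: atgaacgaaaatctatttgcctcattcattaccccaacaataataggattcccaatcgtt

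Gm28438, the copy of mt-Nd3, and Gm29216, a copy of part of mt-Co1, each differed from the mt- gene at 1 aligned base, of 345 and of 483. The stretches around these differences are shown with the differing base in capitals, and the substitutions were T3C for mt-Nd3 and A1066T for mt-Co1, counted from the start of the mt- gene with its base first:
mt-Nd3, chrM:9459-9481, plus strand: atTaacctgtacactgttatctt
Gm28438, chr1:24613097-24613119, minus strand: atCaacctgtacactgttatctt
mt-Co1, chrM:6390-6413, plus strand: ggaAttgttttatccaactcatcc
Gm29216, chr1:24616165-24616188, minus strand: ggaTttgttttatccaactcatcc

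The deposited counts were split between these rows. The row of mt-Atp6 held 14.8% to 27.2% of the reads of the gene and its copies together, and the row of mt-Co2 held 13.7% to 28.3%. The shares were 26.7% to 45.4% for mt-Co3, 12.9% to 18.5% for mt-Nd3, 30.3% to 44.2% for mt-Nd4l and 86.6% to 89.2% for mt-Co1. For mt-Atp6, mt-Co2 and mt-Co3 the share was highest in homozygous replicate 3. The rows of mt-Nd2 and mt-Nd4 held over 99% of theirs, and no counted copy was found for mt-Nd1, mt-Nd5, mt-Nd6, mt-Cytb and mt-Atp8. Levels of mt- genes are therefore given with the reads of 10 copies added to 8 genes, and values of the deposited rows are given where they differ. This addition was chosen after the copies were seen in the table.

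Neighbouring mt- genes also share bases. The end of mt-Atp8 and the start of mt-Atp6 overlap by 43 bases, shown in capitals, and the end of mt-Nd4l and the start of mt-Nd4 by 7:
mt-Atp8 and mt-Atp6, chrM:7912-7984, plus strand: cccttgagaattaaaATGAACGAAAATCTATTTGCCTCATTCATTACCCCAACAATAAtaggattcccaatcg
mt-Nd4l and mt-Nd4, chrM:10152-10188, plus strand: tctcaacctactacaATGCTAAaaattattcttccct
The effective length of mt-Atp8, the number of positions at which a fragment can start, was only 38.0 bases, so its level per length is uncertain.

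Per unit of length, the mt- genes stood above every nuclear member in the heterozygous libraries. The measure is CPM per kilobase of effective length, the mean of 4 libraries ± SD. The 3 complex IV subunits of the mt- set had almost the same level: mt-Co3 20594 ± 1781, mt-Co1 20038 ± 2213 and mt-Co2 19507 ± 2076. These form the catalytic core of cytochrome c oxidase. mt-Atp6, the proton channel subunit of ATP synthase, had 17920 ± 1775. The ranges of these 4 genes overlapped, so their order is not resolved.

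A lower tier held mt-Cytb, the core of complex III, at 7183 ± 655, and most complex I subunits. Among the latter, mt-Nd4l had 7106 ± 517, mt-Nd1 6638 ± 677, mt-Nd3 5850 ± 453, mt-Nd4 5774 ± 446 and mt-Nd2 4012 ± 335. mt-Nd2 was at most 4269 in any heterozygous library and mt-Nd4 at least 5167, so these neighbours in the order did not overlap, while mt-Cytb, mt-Nd4l and mt-Nd1 overlapped with each other. The lowest were mt-Nd6, at 2885 ± 704, and mt-Nd5, at 1950 ± 417. mt-Nd6 is the only protein gene of the set on the opposite strand, and its annotated bases overlap the end of mt-Nd5 (chrM:11742-13565 and chrM:13552-14070). The ranges of mt-Nd2 and mt-Nd6 overlapped, as did those of mt-Nd6 and mt-Nd5. mt-Nd6 and mt-Nd5 also varied most between heterozygous libraries, with SDs of log2 level of 0.37 and 0.31 against a median of 0.14 for the mt- set.

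Nuclear subunits lay far lower, with a median of 140 CPM per kilobase and a highest value of 774 ± 74.4 for Cox4i1, a regulatory subunit of complex IV. Cox6c followed at 731 ± 79.5, Atp5b, the catalytic beta subunit of ATP synthase, at 617 ± 41.1, and Cox6b1 at 583 ± 51.3. The ranges of Cox4i1 and Cox6c overlapped. Uqcrh, the hinge protein of complex III, led its complex at 548 ± 55.2. Ndufa4, grouped here by name with complex I and also known as a subunit of complex IV, led the complex I names at 472 ± 51.9. Sdha, the flavoprotein of complex II, led its complex at 168 ± 4.87. Medians by complex were 114 for I, 99.4 for II, 176 for III, 248 for IV, 235 for V and 14.96 for the Ndufaf assembly factors.

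**Figure D1:**
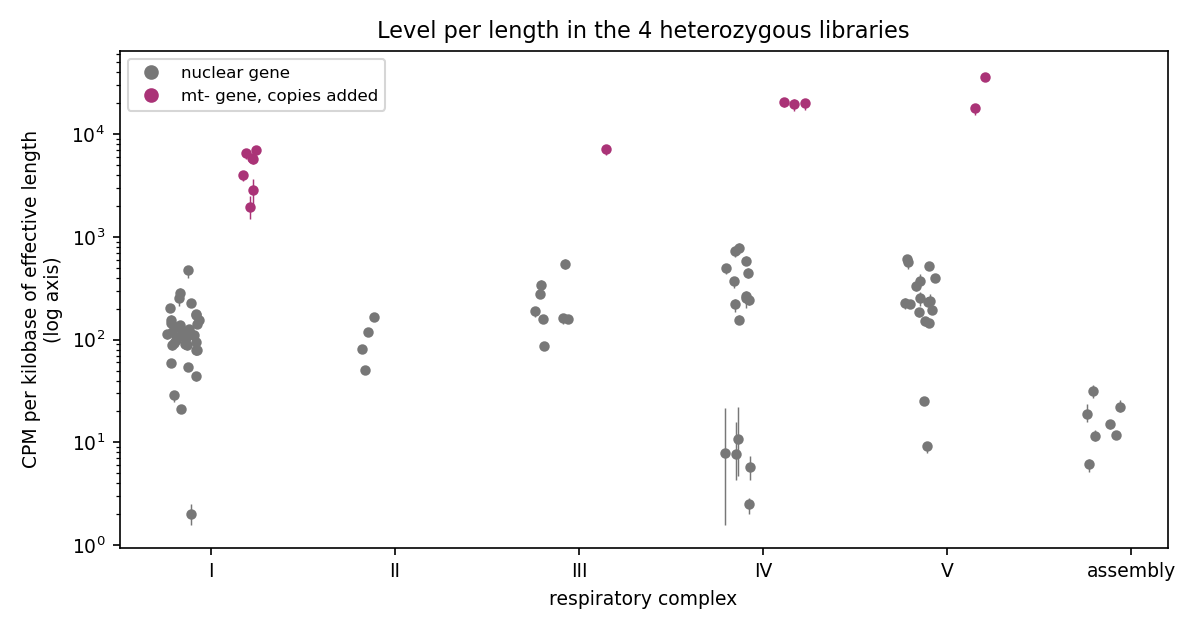
Level per length of each member in the 4 heterozygous libraries, as CPM per kilobase of effective length on a log axis, by respiratory complex. Points are means and bars run from the lowest to the highest library; the 13 mt- genes lie between 1950 and 36031 and the 90 nuclear genes between 2.03 and 774, with the mt-Atp8 point resting on 38.0 effective bases.

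For the comparison of genotypes, the 13 mt- genes were summed in each library. With copies added, the sums were 84239, 91828, 93593 and 75763 CPM in heterozygous replicates 1 to 4. Homozygous replicates 2, 3 and 4 had 124676, 133807 and 110202 CPM, all above the heterozygous range. The library labelled homozygous replicate 1 had 91158 CPM, inside that range. The groups overlapped with 8 libraries and did not with 7.

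The 90 nuclear genes summed to 10386, 10146, 10966 and 9434 CPM in the heterozygous libraries. The homozygous libraries had 10620, 10293, 11012 and 10420 CPM in replicates 1 to 4. These ranges overlapped with or without homozygous replicate 1. The mt- sum was 8.11, 9.05, 8.53 and 8.03 times the nuclear sum in the heterozygous libraries, and 12.1, 12.2 and 10.6 times it in homozygous replicates 2 to 4. The ratio was 8.58 in the library labelled homozygous replicate 1. From the deposited rows alone the ratio was 5.31 to 6.13 in heterozygous libraries, 5.82 in homozygous replicate 1, and 7.11 to 8.72 in replicates 2 to 4.

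**Figure D2:**
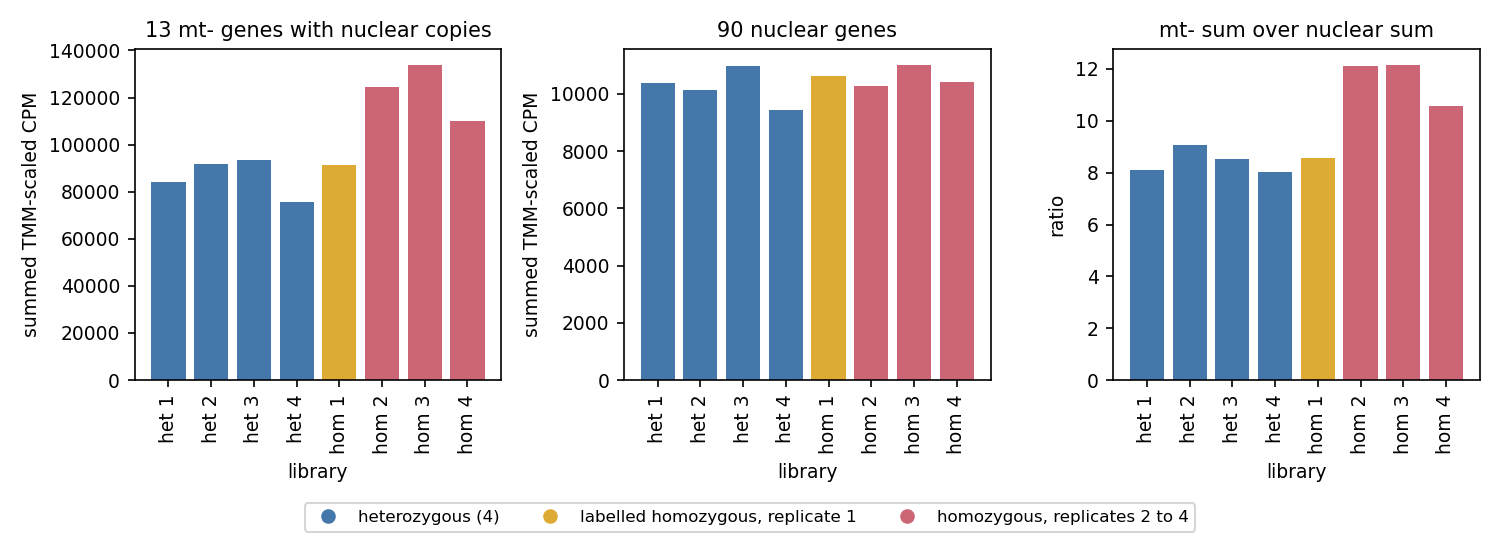
Summed TMM-scaled CPM of the 13 mt- genes with their nuclear copies, of the 90 nuclear genes, and the ratio of these sums, as bars from 0 for each of the 8 libraries. Homozygous replicates 2 to 4 have ratios of 10.6 to 12.2 against 8.03 to 9.05 in the heterozygous libraries, while the nuclear sums of the groups overlap; the library labelled homozygous replicate 1 has a ratio of 8.58.

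In the tests by gene, 7 of 13 mt- genes were higher in homozygous libraries at an adjusted p under 0.05 with 7 libraries and copies added, beside 0.55% of all 16551 genes tested (edgeR quasi-likelihood test, Benjamini-Hochberg adjustment over all genes). The 7 were mt-Nd1, mt-Nd2, mt-Nd3, mt-Nd4, mt-Cytb, mt-Co3 and mt-Atp6. All 13 had positive log2 fold changes, from 0.42 to 0.72 with a median of 0.54, while the median over all genes was 0.0027. From the deposited rows 6 were called, beside 0.55% of 16560 genes: mt-Nd4l, mt-Cytb, mt-Nd2, mt-Nd3, mt-Nd1 and mt-Nd4. DESeq2 called 12 of the deposited rows with 7 libraries, beside 2.6%, and 7 with 8, beside 1.64%. With no filter on low counts edgeR called 1 with 8 libraries, mt-Nd4l, beside 0.0699%. With 8 libraries edgeR called 0 of 13, as it did of all 16502 genes (0%), though 12 had an unadjusted p under 0.05 and a positive fold change, as had 1294 of the 16502. All 13 fold changes were positive there too, with a median of 0.43. DESeq2 called 9 with 8 libraries (beside 1.62% of genes higher) and 13 with 7 (beside 2.59%), and limma-voom called 0 and 3 (beside 0% and 0.32%).

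The count depended on single libraries. With copies added and 7 libraries it was 3 without heterozygous replicate 1, 1 without heterozygous replicate 2 or 3, and 0 without heterozygous replicate 4. It was also 0 without homozygous replicate 2 or homozygous replicate 3, and 9 without homozygous replicate 4. The count over all genes moved too, from 91 of 16551 called higher in the full 7-library fit. That count was 70, 25, 25 and 14 without heterozygous replicates 1 to 4 in turn. Without homozygous replicates 2 to 4 in turn it was 13, 6 and 139. These fits tested 16367 to 16976 genes. The median log2 fold change of the mt- set stayed between 0.49 and 0.64 over these 7 fits. Leaving out homozygous replicate 3, which had the lower mapping rate, gave 0.49.

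Complex I takes electrons from NADH, and its mt- subunits form the proton-pumping membrane arm. mt-Nd3 (chrM:9459-9806) had 901, 949, 972 and 828 CPM in heterozygous replicates 1 to 4. It had 902 in the library labelled homozygous replicate 1, and 1506, 1659 and 1291 in homozygous replicates 2 to 4. The last 3 were all above the heterozygous range, and replicate 1 was within it. With 7 libraries the log2 fold change was 0.70 (SE 0.10, edgeR adjusted p = 0.0172), and mt-Nd3 stayed called in 4 of the 7 fits that left out 1 library.

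mt-Nd2 (chrM:3914-4951) had 3403, 3534, 3572 and 2970 CPM in heterozygous libraries. The homozygous libraries had 3272, 5262, 5810 and 4541 CPM in replicates 1 to 4. As for mt-Nd3, replicate 1 sat inside the heterozygous range and the other 3 above it (log2 fold change with 7 libraries 0.63, SE 0.10, edgeR adjusted p = 0.0311).

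mt-Nd1 (chrM:2751-3707) had 4908, 5428, 5440 and 4376 CPM in heterozygous libraries and 5024, 7428, 7967 and 6522 in homozygous replicates 1 to 4. mt-Nd4 (chrM:10167-11544) had 6750, 7176, 7225 and 6104 CPM in heterozygous libraries and 7142, 9846, 10551 and 8507 in homozygous replicates 1 to 4. For both genes homozygous replicate 1 was inside the heterozygous range and replicates 2 to 4 were above it. The log2 fold changes from 7 libraries were 0.54 (SE 0.10, edgeR adjusted p = 0.0460) for mt-Nd1 and 0.50 (SE 0.10, edgeR adjusted p = 0.0482) for mt-Nd4.

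mt-Nd4l (chrM:9877-10173), which missed the threshold with copies added, had 713 to 861 CPM in heterozygous libraries, 775 in homozygous replicate 1, and 1168, 1117 and 941 in replicates 2 to 4 (log2 fold change 0.46, SE 0.10, edgeR adjusted p = 0.0522). Its deposited row alone gave 0.66 (SE 0.07, edgeR adjusted p = 0.00952). The call differed with how reads shared with its copy Gm10222 were counted.

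mt-Nd5 and mt-Nd6 had the widest spread. mt-Nd6 had 655, 1176, 1031 and 850 CPM in heterozygous libraries and 953, 1579, 1697 and 1317 in homozygous replicates 1 to 4. mt-Nd5 had 2430, 4041, 3283 and 2926 CPM in heterozygous libraries and 3256, 5200, 4688 and 4042 in homozygous replicates 1 to 4. Heterozygous replicate 1 was lowest for both. With 7 libraries their groups did not overlap, and the log2 fold changes were 0.72 (SE 0.19, edgeR adjusted p = 0.0941) for mt-Nd6 and 0.55 (SE 0.16, edgeR adjusted p = 0.118) for mt-Nd5. With 8 libraries the 7 complex I genes overlapped between groups, with log2 fold changes from 0.36 for mt-Nd4l to 0.58 for mt-Nd6 and edgeR adjusted p-values of 0.155 to 0.255.

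Complex III passes electrons to cytochrome c, and mt-Cytb (chrM:14145-15288) is its only mt- subunit. It had 6855, 7064, 7333 and 5928 CPM in heterozygous libraries and 7677, 10130, 11722 and 9897 in homozygous replicates 1 to 4. With copies added it was the only mt- gene whose 8 libraries did not overlap between groups, since replicate 1 lay just above the highest heterozygous library. Of all genes, 4.59% were non-overlapping and higher with 8 libraries. In the deposited rows mt-Nd4l, mt-Co2, mt-Co3 and mt-Atp6 were non-overlapping too, making 5 of 13 beside 4.61% of genes. The log2 fold change was 0.54 (SE 0.12, edgeR adjusted p = 0.129) with 8 libraries and 0.64 (SE 0.10, edgeR adjusted p = 0.0259) with 7.

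Complex IV reduces oxygen. mt-Co3 (chrM:8607-9390) had 11907, 12295, 13250 and 10819 CPM in heterozygous libraries and 12822, 17714, 18857 and 15564 in homozygous replicates 1 to 4. Its log2 fold change with 7 libraries was 0.53 (SE 0.10, edgeR adjusted p = 0.0424). mt-Co1 (chrM:5328-6872) had 23181 to 29533 CPM in heterozygous libraries, 29045 in homozygous replicate 1 and 36273, 38769 and 33179 in replicates 2 to 4, with the smallest log2 fold change of the set (0.42, SE 0.11, edgeR adjusted p = 0.0842). It held the most reads of any member. mt-Co2 (chrM:7013-7696) had 8281 to 10653 CPM in heterozygous libraries, 10053 in homozygous replicate 1 and 12588, 14619 and 12094 in replicates 2 to 4 (log2 fold change 0.47, SE 0.11, edgeR adjusted p = 0.0629). In the deposited rows homozygous replicate 3 stood alone for mt-Co2, with 4131 CPM against 1677 to 1931 in replicates 2 and 4. Adding the copies brought it to the values just given. With 8 libraries the log2 fold changes were 0.35 for mt-Co1, 0.38 for mt-Co2 and 0.43 for mt-Co3, with edgeR adjusted p-values of 0.147 to 0.184.

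Complex V makes ATP. mt-Atp6 (chrM:7927-8607) had 8544, 9257, 9308 and 7517 CPM in heterozygous libraries and 9018, 13651, 14265 and 10826 in homozygous replicates 1 to 4. Its log2 fold change with 7 libraries was 0.58 (SE 0.12, edgeR adjusted p = 0.0496), against 0.97 (SE 0.26, edgeR adjusted p = 0.116) from the deposited row. mt-Atp8 (chrM:7766-7969), a short structural subunit, had 1354, 1535, 1280 and 1242 CPM in heterozygous libraries and 1220, 2332, 2087 and 1480 in homozygous replicates 1 to 4. It was the 1 mt- gene whose groups overlapped with 7 libraries, because homozygous replicate 4 was below heterozygous replicate 2. Its log2 fold change with 7 libraries was 0.54 (SE 0.14, edgeR adjusted p = 0.0960). With 8 libraries mt-Atp6 had 0.46 and mt-Atp8 0.40, with edgeR adjusted p-values of 0.166 and 0.322. With 7 libraries the other 12 mt- genes did not overlap, beside 9.75% of all genes non-overlapping and higher.

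**Figure D3:**
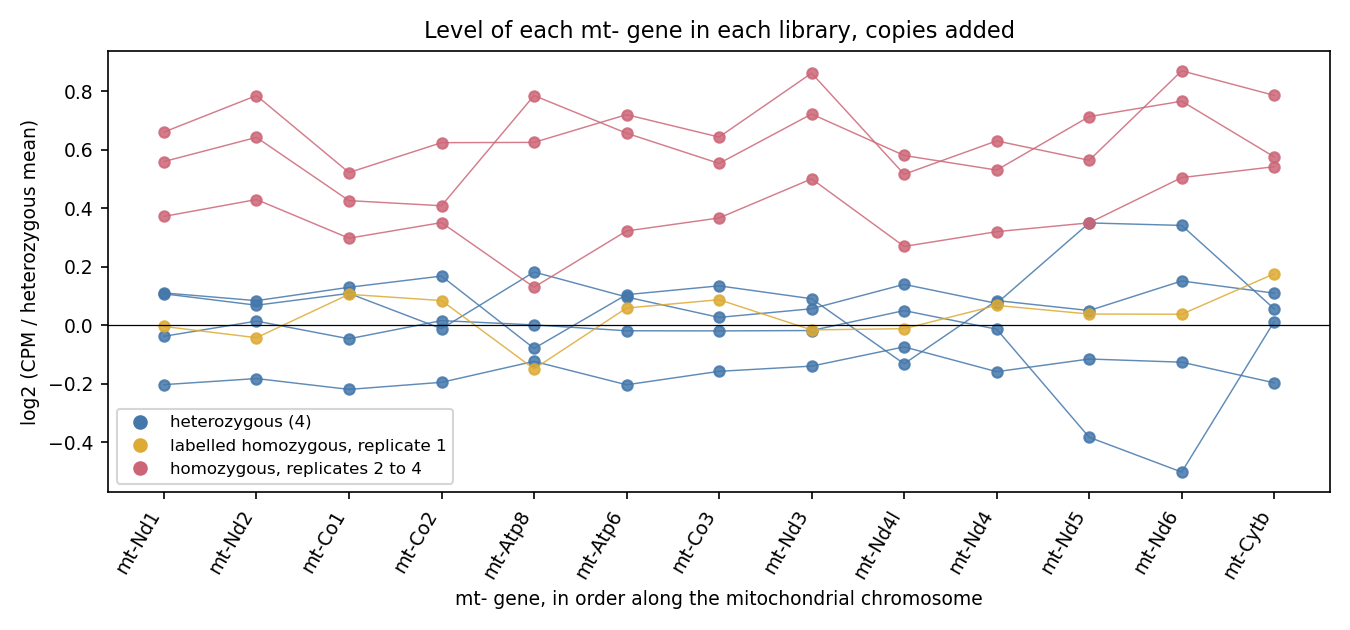
Log2 of the CPM of each mt- gene, with copies added, over the mean of the 4 heterozygous libraries, for each of the 8 libraries, with genes in their order along the mitochondrial chromosome. Lines join the genes of a library; median values are 0.58, 0.64 and 0.35 in homozygous replicates 2 to 4 and 0.04 in the library labelled homozygous replicate 1, and heterozygous replicate 1 drops to -0.50 at mt-Nd6.

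The order of the libraries varied between genes, and homozygous replicate 2 was highest for mt-Atp8, mt-Nd4l and mt-Nd5 while replicate 3 was highest for the other 10. Over the 13 genes the median log2 level over the heterozygous mean was 0.58, 0.64 and 0.35 in homozygous replicates 2, 3 and 4 and 0.04 in the library labelled homozygous replicate 1. In heterozygous replicates 1 to 4 it was -0.02, 0.10, 0.10 and -0.16. The genes share a chromosome and their libraries, so they are not independent.

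The nuclear subunits gave a different picture. With 7 libraries edgeR called 0 of 90 in either direction, beside 0.55% of 16560 genes called higher and 0.67% called lower. Unadjusted p-values were under 0.05 for 5 higher and 1 lower, beside 1575 and 1646 of the 16560 genes. DESeq2 called 1 higher, Ndufv3, beside 2.6% of all genes, and limma-voom called 0. With 8 libraries edgeR again called 0 (beside 0% in each direction), and DESeq2 called Ndufv3, beside 1.64%. Unadjusted p-values were then under 0.05 for 6 upward and 1 downward, beside 1299 and 1470 of 16511 genes. On deposited TPM with 7 libraries limma called 9 of the 90 lower, beside 12.5% of all genes, and 4 mt- genes higher, beside 0.543%. All these shares of the nuclear set were at or below the share of all genes. Log2 fold changes were positive for 67 and negative for 23, with a median of 0.08 from TMM-scaled counts with 7 libraries, and the median was -0.14 from deposited TPM, a scale on which the median of all genes moved to -0.17. The difference between the mt- set and the nuclear set was not tested, because members of a set are not replicates.

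The median log2 fold change of nuclear genes with 7 libraries was 0.09 for complex I, -0.00025 for complex II, 0.09 for complex III, 0.06 for complex IV, 0.08 for complex V and -0.01 for the assembly factors. With 8 libraries these medians were 0.07, -0.0098, 0.07, 0.05, 0.08 and 0.0012 in the same order. Differences between complexes were not tested. Among complex V genes 16 of 17 were positive, and among complex II genes 2 of 4. Complexes were assigned by name, so Atp5s and Atp5sl, in RefSeq Dmac2l and Dmac2, were counted with complex V. On the 7 libraries, 3 nuclear genes were non-overlapping and higher (Ndufv3, Ndufc2 and Atp5l), beside 9.76% of all genes, and 2 were non-overlapping and lower (Ndufa9 and Sdha), beside 8.77%. These shares of the 90 are below the background.

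**Figure D4:**
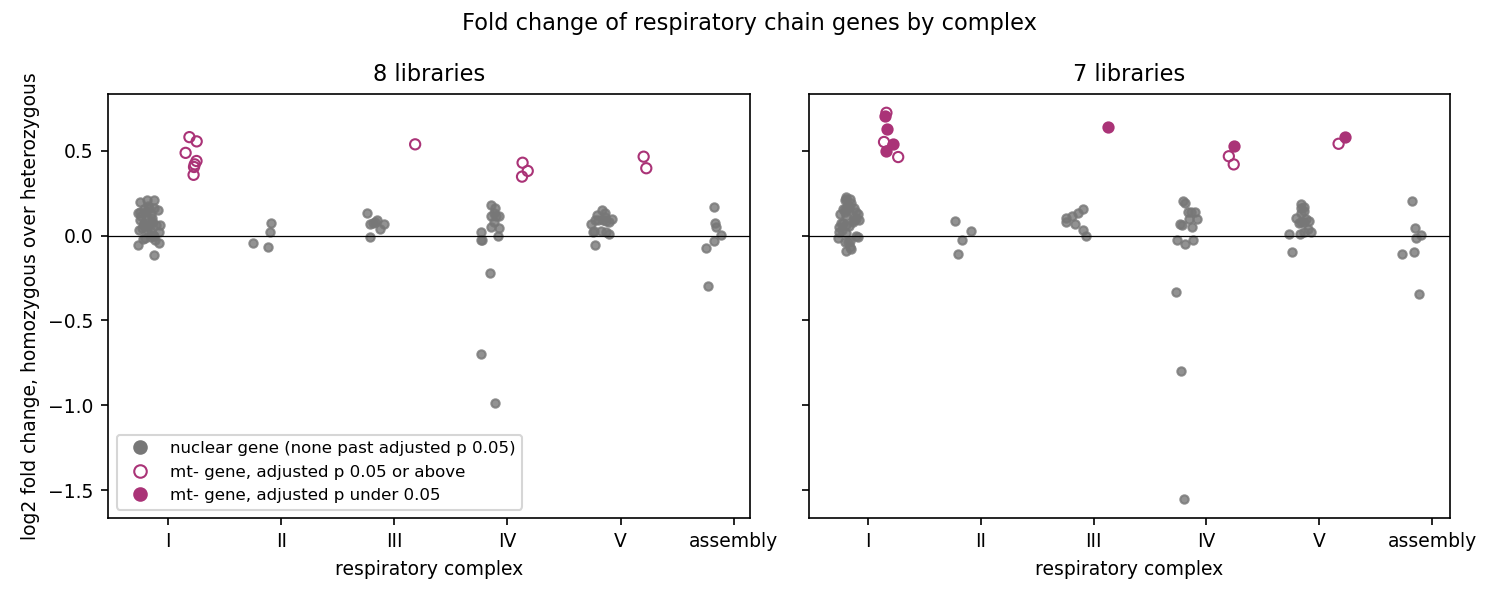
Log2 fold change, homozygous over heterozygous, of each member by respiratory complex, from 8 libraries and from 7, on TMM-scaled counts. Each point is a gene and filled mt- points pass an adjusted p of 0.05; mt- genes, fitted with their copies added, lie between 0.35 and 0.58 with 8 libraries and 0.42 and 0.72 with 7, and nuclear genes have medians of 0.07 and 0.08, which become -0.11 and -0.14 on deposited TPM.

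Ndufv3 (chr17:31520115-31531331), an accessory subunit of the NADH-oxidising part of complex I, had the smallest p of the nuclear set. It had 40.7, 41.0, 43.0 and 42.6 CPM in heterozygous libraries and 47.2, 47.6, 50.8 and 47.5 in homozygous replicates 1 to 4. All 4 homozygous libraries were above all 4 heterozygous ones, the library labelled homozygous replicate 1 included. The log2 fold change was 0.21 (SE 0.06, edgeR adjusted p = 0.136) with 8 libraries and 0.22 (SE 0.06, edgeR adjusted p = 0.0974) with 7. DESeq2 gave 0.21 (SE 0.07, adjusted p = 0.0442) with 7 libraries, and on deposited TPM the value was -0.0357.

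Atp5l, subunit g of ATP synthase, was the other nuclear member non-overlapping and higher over 8 libraries, beside 4.61% of all genes, with 154 to 169 CPM in heterozygous and 174 to 190 in homozygous libraries (log2 fold change 0.14, edgeR adjusted p = 0.278). Other members with small unadjusted p-values in the upward direction were Ndufc2, Ndufa2 and Ndufa7 of complex I and Cox7a2l, which is known for joining complexes III and IV into supercomplexes. Their log2 fold changes with 7 libraries were 0.18 to 0.22 with edgeR adjusted p-values of 0.189 to 0.248, and on deposited TPM the same 4 genes had -0.0654 to -0.0141. Ndufa2 and Ndufc2 were each low in heterozygous replicate 4, at 34.5 and 59.8 CPM.

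In the downward direction the smallest p was that of Ndufaf2, an assembly factor of complex I. It had 15.02, 15.19, 17.26 and 13.12 CPM in heterozygous libraries and 13.50, 10.42, 11.97 and 13.31 in homozygous replicates 1 to 4. The groups overlapped, since homozygous replicate 4 was above heterozygous replicate 4 (log2 fold change with 7 libraries -0.35, SE 0.12, edgeR adjusted p = 0.156). Sdha had 433 to 462 CPM in heterozygous libraries, 463 in homozygous replicate 1 and 430, 396 and 425 in replicates 2 to 4 (-0.11, SE 0.06, edgeR adjusted p = 0.380). Atp5b had a log2 fold change of -0.09 (SE 0.07, edgeR adjusted p = 0.479).

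The nuclear subunits with the highest level per length overlapped between the groups. Cox4i1 had 376 to 470 CPM in heterozygous and 446 to 472 in homozygous libraries. Cox6c had 195 to 249 in heterozygous and 234 to 266 in homozygous libraries. Atp5b had 965 to 1076 in heterozygous and 937 to 1045 in homozygous libraries. Heterozygous replicate 4 was low through most of the set, with 85 of 90 genes below the heterozygous mean, and heterozygous replicate 3 was high, with 83 above it.

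Several complex IV subunits exist as a ubiquitous form and a form typical of heart and skeletal muscle, lung or testis. In the heterozygous libraries the ubiquitous forms had 370 CPM per kilobase for Cox6a1, 253 for Cox7a2 and 502 for Cox8a. The muscle forms had 7.67 for Cox6a2, 10.9 for Cox7a1 and 7.81 for Cox8b. Cox4i2, the lung form, had 2.49 against 774 for Cox4i1, and Cox6b2, the testis form, had 5.81 against 583 for Cox6b1. Ndufa4l2 had 2.03 against 472 for Ndufa4. The 3 genes of the c subunit of ATP synthase code for the same mature protein, and they had 332 for Atp5g3, 225 for Atp5g1 and 145 for Atp5g2, with ranges that did not overlap.

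The 3 muscle forms were high in a single library. Cox6a2 had 7.59 CPM in heterozygous replicate 1 and 2.07 to 3.87 elsewhere. Cox7a1 had 4.49 CPM there and 0.931 to 1.89 elsewhere, and Cox8b had 3.69 there and 0.266 to 1.25 elsewhere. The 12 skeletal muscle markers summed to 767 CPM in the same library, 114 in the library labelled homozygous replicate 1 and 25.6 to 48.1 in the other 6, with none at 0 over the libraries. Acta1, the skeletal muscle actin, had 134 CPM in heterozygous replicate 1. The part of muscle tissue in these 3 members was not tested. The log2 fold change of Cox8b with 8 libraries was -0.98 (edgeR adjusted p = 0.554), and without heterozygous replicate 1 it was 0.31.

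**Figure D5:**
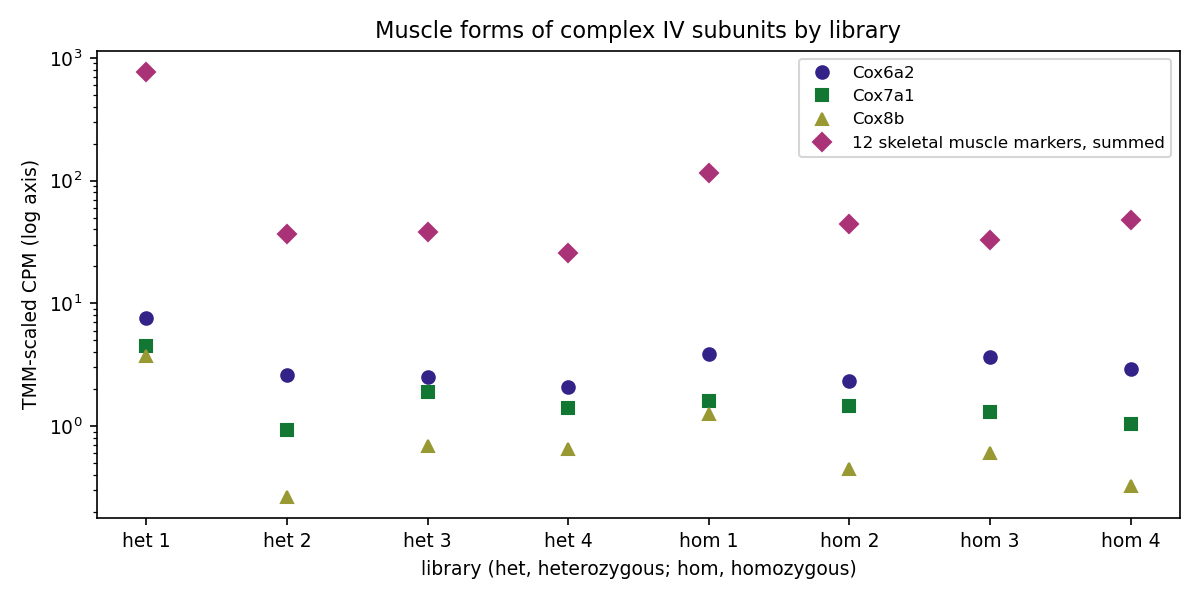
TMM-scaled CPM, on a log axis, of the muscle forms Cox6a2, Cox7a1 and Cox8b and of 12 skeletal muscle markers summed, in each library. Heterozygous replicate 1 is highest in all 4 series, with 7.59, 4.49 and 3.69 CPM for the subunits and 767 for the markers.

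Promoters of nuclear members were compared with all promoters in RefSeq's GRCm38.p6 set, as 250 bases before to 50 after each annotated start. Nuclear respiratory factor 1 is known to bind a sequence of GCGC, any base and then TGCGC, and the ETS factor GABP (nuclear respiratory factor 2) a site holding CCGGAAG. A promoter was found for 75 of the 90. On either strand, this first motif was in the promoters of 19 of 75 members (25.3%) and of 5.19% of 27025 genes. Its form with A as the free base was in 7 of 75 (9.33%) and in 1.07% of genes, and CCGGAAG was in 17 of 75 (22.7%) and in 9.93% of genes. Both motifs were in 4 members, Atp5h, Atp5k, Cox6a1 and Sdhd, and in 1.12% of genes. A pair of them, one of complex V and one of complex IV, is shown with the matches in capitals:
Atp5k promoter, chr5:108434350-108434649, minus strand: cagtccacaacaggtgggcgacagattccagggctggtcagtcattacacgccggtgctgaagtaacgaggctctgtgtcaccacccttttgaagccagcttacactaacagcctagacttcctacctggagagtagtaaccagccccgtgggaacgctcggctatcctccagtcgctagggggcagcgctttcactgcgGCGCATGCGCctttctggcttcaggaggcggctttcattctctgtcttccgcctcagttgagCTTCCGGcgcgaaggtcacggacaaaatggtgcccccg
Cox6a1 promoter, chr5:115348909-115349208, minus strand: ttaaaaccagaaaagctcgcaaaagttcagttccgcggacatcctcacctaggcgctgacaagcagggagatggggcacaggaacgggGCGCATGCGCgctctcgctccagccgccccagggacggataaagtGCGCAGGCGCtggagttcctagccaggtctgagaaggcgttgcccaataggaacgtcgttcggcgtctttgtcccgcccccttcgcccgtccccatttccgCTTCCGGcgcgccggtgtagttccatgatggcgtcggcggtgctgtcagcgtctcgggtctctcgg
Cox6a1 had 118 to 148 CPM in heterozygous and 130 to 179 in homozygous libraries, and Atp5k 87.4 to 119 and 103 to 117, so neither separated the groups. A match describes the letters only, and the background of all genes was not matched to the members for the base content of promoters. The promoters of Ndufv3, Ndufaf2, Cox7a1, Cox7a2 and Cox8b held neither motif.

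Other mitochondrial genes were read from lists of related function. The ribosomal RNAs mt-Rnr1 and mt-Rnr2 come from the same chromosome. mt-Rnr1 had 4884, 4303, 4431 and 3221 CPM in heterozygous libraries and 5487, 5479, 6632 and 5280 in homozygous replicates 1 to 4. mt-Rnr2 had 7262, 6346, 6559 and 5004 CPM in heterozygous libraries and 7671, 8470, 9152 and 7827 in homozygous replicates 1 to 4. Both were non-overlapping and higher over all 8 libraries, with the library labelled homozygous replicate 1 among the high ones, beside 4.61% of all genes. Of the 13 mt- mRNAs, 12 overlapped there with copies added, and 5 of the deposited rows did not overlap. Log2 fold changes of mt-Rnr1 and mt-Rnr2 with 7 libraries were 0.46 (SE 0.14, edgeR adjusted p = 0.126) and 0.43 (SE 0.12, edgeR adjusted p = 0.106). DESeq2 called both higher with 7 libraries, beside 2.6% of all genes, and with 8, beside 1.64%. The 22 mitochondrial tRNAs together had at most 0.521 CPM in a library, and none was tested.

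Of 164 tested genes in all the other lists, these ribosomal RNAs included, edgeR called 0 with 8 libraries and 0 with 7, beside 0.55% higher and 0.67% lower of all genes with 7. Unadjusted p-values under 0.05 with 7 libraries numbered 15 upward and 7 downward, beside 1575 and 1646 of all 16560 genes. With 8 libraries they numbered 16 and 7, beside 1299 and 1470 of 16511. With 7 libraries DESeq2 called 4 higher and 2 lower, beside 2.6% and 3.94% of all genes, and limma-voom called 1 higher (beside 0.332%) and 0 lower (beside 0.326%). With 8 libraries DESeq2 called 6 higher and 1 lower, beside 1.64% and 2.48%. On deposited TPM with 7 libraries limma called 1 higher and 32 lower, beside 0.543% and 12.5%, and edgeR with no filter called 2 higher, Idh2 and Pet117, beside 0.585%. The list of nuclear regulators of mitochondrial genes had 2 positive and 13 negative log2 fold changes among its 15 genes. Its median was -0.18 (-0.14 with 8 libraries). Over all genes 8359 were positive and 8201 negative with 7 libraries. Of the 15, edgeR called 0, and 3 had an unadjusted p under 0.05, all lower, beside 1646 of 16560 genes. Ppargc1a, a coactivator of mitochondrial biogenesis, had 52.3 to 57.8 CPM in heterozygous libraries and 49.9 to 63.2 in homozygous ones. Esrra, an orphan receptor that activates respiratory genes, had 36.7 to 46.9 and 35.3 to 40.1 CPM (-0.21, edgeR adjusted p = 0.197).

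Genes of mitochondrial DNA upkeep and transcription had 11 positive and 6 negative values and a median of 0.05. Tfam, which packages mitochondrial DNA, had 32.2 to 36.8 CPM in heterozygous and 34.7 to 38.0 in homozygous libraries. Mgme1, a nuclease for mitochondrial DNA, had 6.18 to 8.44 CPM in heterozygous libraries, 6.61 in homozygous replicate 1 and 5.14, 4.67 and 5.32 in replicates 2 to 4 (log2 fold change -0.56, SE 0.14, edgeR adjusted p = 0.0778). Among RNA processing genes Slirp, a partner of Lrpprc in holding mitochondrial mRNA stable, had 22.9 to 25.3 and 24.6 to 30.0 CPM (0.24, edgeR adjusted p = 0.136).

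In the citric acid cycle list 8 genes were positive and 10 negative, with a median of -0.01. Idh2, the mitochondrial NADP-dependent isocitrate dehydrogenase, had 29.3 to 38.7 CPM in heterozygous libraries, 38.4 in homozygous replicate 1 and 55.6, 45.7 and 46.4 in replicates 2 to 4 (log2 fold change 0.55, SE 0.12, edgeR adjusted p = 0.0576). Dlst, of the oxoglutarate dehydrogenase complex, had 129 to 148 and 113 to 126 CPM (-0.24, SE 0.07, edgeR adjusted p = 0.101). For glycolysis 8 of 16 were positive, with a median of 0.02. Assembly factors outside the rule had a median of 0.04 over 41 genes, cytochrome c and coenzyme Q genes 0.06 over 15, RNA processing genes 0.01 over 19, and carrier, import and shape genes 0.01 over 21. With 8 libraries the medians of these lists, of DNA upkeep, of the citric acid cycle and of glycolysis were between 0.0029 and 0.04. The median over all genes tested was 0.0027.

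Some markers of cell types also differed between the libraries. With 7 libraries 3 of 11 neuron markers were called lower (edgeR, beside 0.67% of all genes), the neurofilament genes Nefl, Nefm and Nefh. With 8 libraries 0 were, though all 3 had an unadjusted p under 0.05 there. Of the 11 markers, 2 had positive and 9 negative log2 fold changes with 7 libraries. Among those not called, Gad1 had 0.09, Rbfox3 0.04, Syt1 -0.0047, Slc32a1 -0.04 and Snap25 -0.05. The rest were Stmn2 at -0.18, Slc17a6 at -0.32 and Chat at -0.51. Nefm was at 751 to 940 CPM in heterozygous libraries, 750 in homozygous replicate 1 and 396 to 546 in replicates 2 to 4. The summed neuron markers were 6661 to 7940 CPM in heterozygous and 6381 to 6919 in homozygous replicates 2 to 4. The 6 Schwann cell markers summed to 163 to 619 CPM in heterozygous libraries, 59.96 in homozygous replicate 1 and 58.1 to 108 in the others. For oligodendrocyte markers the sums were 9909 to 11325 and 7746 to 15229 CPM, overlapping. No list had a marker at 0 over the libraries. Also called lower with 7 libraries were 1 of 6 microglia markers (Tmem119), 1 of 6 Schwann cell markers (Dhh) and 1 of 6 fibroblast markers (Col3a1), and with 8 libraries none of these was called. The summed microglia markers were 254 to 308 CPM in heterozygous libraries and 222 to 281 in homozygous replicates 2 to 4, and fibroblast markers 93.6 to 169 and 82.4 to 93.98. Endothelial markers had 6 of 6 negative log2 fold changes and 0 calls, with sums of 141 to 201 and 95.7 to 171 CPM. The 6 astrocyte markers had 2 positive and 4 negative log2 fold changes and 0 calls with 7 libraries. Their sums overlapped, at 3538 to 4135 CPM in heterozygous libraries and 3257 to 3959 in homozygous replicates 2 to 4. Among them Gfap, which rises in reactive cells, had 316 to 417 CPM in heterozygous libraries and 303 in homozygous replicate 1. It had 594, 567 and 1352 in replicates 2 to 4 (log2 fold change 1.17, SE 0.31, edgeR adjusted p = 0.117). The part of cell makeup in the higher mt- levels was not tested.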

How the data were processed

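The members and lists were chosen with earlier results of these data known. Per the submitters' processing notes, cutadapt, STAR, Picard and RSEM were used with build mm10 (versions, annotation and strand setting: not given in the sources used here). Deposited by the authors were RSEM expected counts, TPM and effective lengths per library, and a sheet of percentages and scores for read quality. The authors also deposited their own comparison, as log2 fold changes and p-values for 185 genes, which holds 0 of the members.

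Expected counts were rounded, filtered with filterByExpr, scaled by TMM and fitted with edgeR 4.0.16 (R 4.3.3) by robust quasi-likelihood, homozygous against heterozygous with no covariate. Adjusted p-values are Benjamini-Hochberg over all genes tested, at 0.05, and SE is the absolute log2 fold change divided by the square root of F. DESeq2 1.42.0 and limma 3.58.1 (voom, and log2(TPM + 1)) were alternatives, beside other scalings, filters and left-out libraries. Only the edgeR fit was tested on simulated counts, and the other fits and the addition of copies were not. Copies of mt- genes were found with blastn 2.17.0 as GENCODE M21 transcripts at least 95% identical over at least 100 bases. Copies of nuclear members were not searched for, and their share of reads is uncertain. Genes named are all mt- members, the 5 nuclear members with the smallest p in each direction and fit, the 3 of each complex with the highest TPM, tissue forms, up to 3 genes of each other list, and markers. Ndufa9, Tfam and Ppargc1a were named after their values were seen. An item that the rule names is not reported here.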

Additional observations from a re-analysis of the deposited data

Results flagged for a closer look

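In groups of 4 libraries, a library was picked out where its gap to the nearest other library was a large part of the group's range (past Dixon's critical value). Of 108 groups of values, 10 were picked out, and chance picks out about 1 group in 20. Homozygous replicate 3 was the high library for 5 nuclear subunits. Atp5g2 had 89.6 CPM there against 79.1 to 80.6 in the other homozygous libraries, and Atp5l had 190 against 174 to 175. Cox7a2 had 173 CPM against 145 to 147, Uqcr10 102 against 82.3 to 85.3, and Ndufv3 50.8 against 47.2 to 47.6. The same library had the lower mapping rate and the higher share of ribosomal bases, and their part in these values was not tested. Heterozygous replicate 4 was the low library for Ndufa2, with 34.5 CPM against 40.2 to 40.6, and for Ndufc2, with 59.8 against 66.5 to 67.3. Heterozygous replicate 1 was the high library for the muscle forms Cox6a2, with 7.59 CPM against 2.07 to 2.63, and Cox8b, with 3.69 against 0.266 to 0.685. Arf1 had 307 CPM in the library labelled homozygous replicate 1 against 22.5 to 39.9 in the other homozygous libraries.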

How the results depend on the processing

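No paired analysis was possible because the replicate numbers follow the order of the samples and the labels name no pairing. Under every alternative run, the fold change of each mt- gene stayed positive, and calls were lost or gained. From deposited rows with 8 libraries the count of mt- genes called higher was 0 by edgeR, 7 by DESeq2 and 1 (mt-Nd4l) with no filter on low counts, and with copies added DESeq2 gave 9. With 7 libraries it was 6, against 12 by DESeq2. On TPM rescaled over genes outside the mitochondrial chromosome it was 3 by limma, beside 68 of 16560 genes called higher. With copies added and 7 libraries the edgeR count was 7, against 13 by DESeq2 and 3 by limma-voom. DESeq2 called 1 nuclear gene higher, Ndufv3, with 8 and with 7 libraries, copies added or not. On TPM with 7 libraries limma called 9 nuclear genes lower (12.5% of all genes were), and 1 (Ndufaf2) on TPM outside the mitochondrial chromosome, where 486 of 16560 genes were. Leaving out 1 library gave 0 to 6 mt- genes from 8 libraries (0 to 7 with copies added) and 0 to 9 from 7 (0 to 9 with copies added). From the deposited rows of 7 libraries, leaving out heterozygous replicates 1 to 4 gave counts of 4, 1, 2 and 1. These were beside 72, 27, 32 and 16 of all genes called higher. Leaving out homozygous replicates 2 to 4 gave 1, 0 and 9, beside 14, 3 and 139 of all genes. Each of these fits tested 16376 to 16985 genes. Of the edgeR fits that left out 1 of 8 libraries, the 1 without the library labelled homozygous replicate 1 gave the calls of mt- genes. In the other mitochondrial lists the range was 0 to 1, Pet117 without heterozygous replicate 4 from 7 libraries, beside 16 of 16385 genes.

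The median of the mt- set from deposited rows was 0.54 with 8 libraries and 0.64 with 7, and on TPM 0.35 and 0.40. That of the nuclear set was 0.07 and 0.08, on TPM -0.11 and -0.14, and on TPM outside the mitochondrial chromosome -0.0479 and -0.0592. The mean ratio of the summed sets was 5.63, 7.46 and 8.002 from deposited rows in heterozygous libraries, 4 homozygous and 3 homozygous libraries, and 8.43, 10.9 and 11.6 with copies added. On TPM the sign turned with 8 libraries for Atp5l (-0.051), Ndufa7 (-0.027) and Ndufc2 (-0.012). With 7 it turned for Atp5l (-0.095), Cox7a2l (-0.028), Ndufa2 (-0.014), Ndufa7 (-0.065), Ndufc2 (-0.021) and Ndufv3 (-0.036), and on TPM outside the mitochondrial chromosome for Atp5l (-0.013). Cox8b ranged from -1.55 to 0.31 when 1 of 8 libraries was left out. The cause of these changes was not tested.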
